A study of Mus with 6 samples.

Results

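Mitochondrial ribosomal proteins build the ribosome that translates the messenger RNAs of the mitochondrial genome. They were followed here in mouse brain pieces labelled basolateral amygdala, a region central to fear memory. The genes were taken as the protein-coding rows of the FPKM table whose symbol starts with Mrpl or Mrps and a digit, which gave 78 of 54532 genes, 49 Mrpl and 29 Mrps. All are transcribed in the nucleus, translated in the cytosol and imported into mitochondria, where they join the mitochondrially encoded ribosomal RNAs. The large subunit, to which most Mrpl proteins belong, forms peptide bonds, and the small subunit, to which most Mrps proteins belong, reads the codons. The products of this ribosome are core subunits of the respiratory chain and ATP synthase, on which neurons depend for energy.

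RNA sequencing compared 3 libraries from mice labelled CNTNAP4-KO (KO) with 3 from mice labelled wild type (WT), all 6 labelled male and from the same labelled tissue. Cntnap4 encodes a neuronal adhesion protein, and the series title also names a Lactobacillus reuteri treatment, for which no sample was analysed here. The sources used here do not state how the allele was made, the strain or the age of the mice. Values are FPKM, fragments scaled by the authors to gene length and by a factor for each library, which did not follow the reads in genes alone.

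The 6 libraries held 17647556 to 20813211 reads in genes, recovered from the FPKM steps. Cntnap4 averaged 1.36 ± 0.320 FPKM in KO and 3.51 ± 1.44 FPKM in WT (SD, n = 3 each), with every KO library below every WT library (exact two-sided permutation p = 0.1, the smallest that 3 against 3 allow). The library labelled KO replicate 1 held Xist at 43.0 FPKM and 0 reads on 4 Y-linked genes, against at most 0.0346 FPKM and at least 2831 reads in the other 5, which goes against its male label. All 10 oligodendrocyte markers were detected in every library, and their summed level was 914 to 1362 FPKM in KO and 1496 to 1984 FPKM in WT. All 8 excitatory neuron markers were detected as well, and their sum was 613 to 890 FPKM in KO and 356 to 418 FPKM in WT. Of these 8, 7 were higher on average in KO, and Slc17a6 went the other way (log2 -0.59). KO replicate 2 stood apart, with Slc17a7, the vesicular glutamate transporter of most cortical and basolateral amygdala neurons, at 94.3 FPKM, against 21.4 and 19.1 FPKM in KO replicates 1 and 3 and 5.37 to 6.42 FPKM in WT. The 8 microglia markers summed to 218 to 283 FPKM in KO and 263 to 294 FPKM in WT. Of these, 3 (37.5%) were lower at an unadjusted limma p under 0.05, against 6.85% of all genes tested. The 8 inhibitory neuron markers summed to 732 to 861 FPKM in KO and 642 to 762 FPKM in WT. Of these, 3 (37.5%) were higher at that limma threshold, against 8.36% of all genes tested. Their directions were mixed, with 5 of the 8 log2 differences positive and the lowest at -0.35. Astrocyte and endothelial markers had medians of -0.01 and 0.00 on the log2 scale. In such bulk pieces fewer cells of a type and less RNA per cell cannot be told apart. The part these marker differences have in the values below was not tested.

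Of the 78 genes, 77 were present in all 6 libraries, and the 78th, Mrpl53, was listed at 0 in each. The mean level over the 6 libraries ran from 2.33 FPKM for Mrps35 to 59.7 FPKM for Mrpl41, a 25.6-fold range, with a median of 12.4 FPKM. Most genes lay close together, with 44 between 10 and 30 FPKM, 15 between 5 and 10, 13 under 5 and 5 above 30. Single values rested on 126 to 1881 reads per gene and library, with a median of 561. The level and the deposited gene length ran in opposite directions across the 77 genes (Spearman rho -0.84, a description over genes that share libraries and the length used in the FPKM itself). Deposited lengths of 607 to 8631 bases enter each FPKM value as the divisor, so the order of levels carries that annotation.

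**Figure D1:**
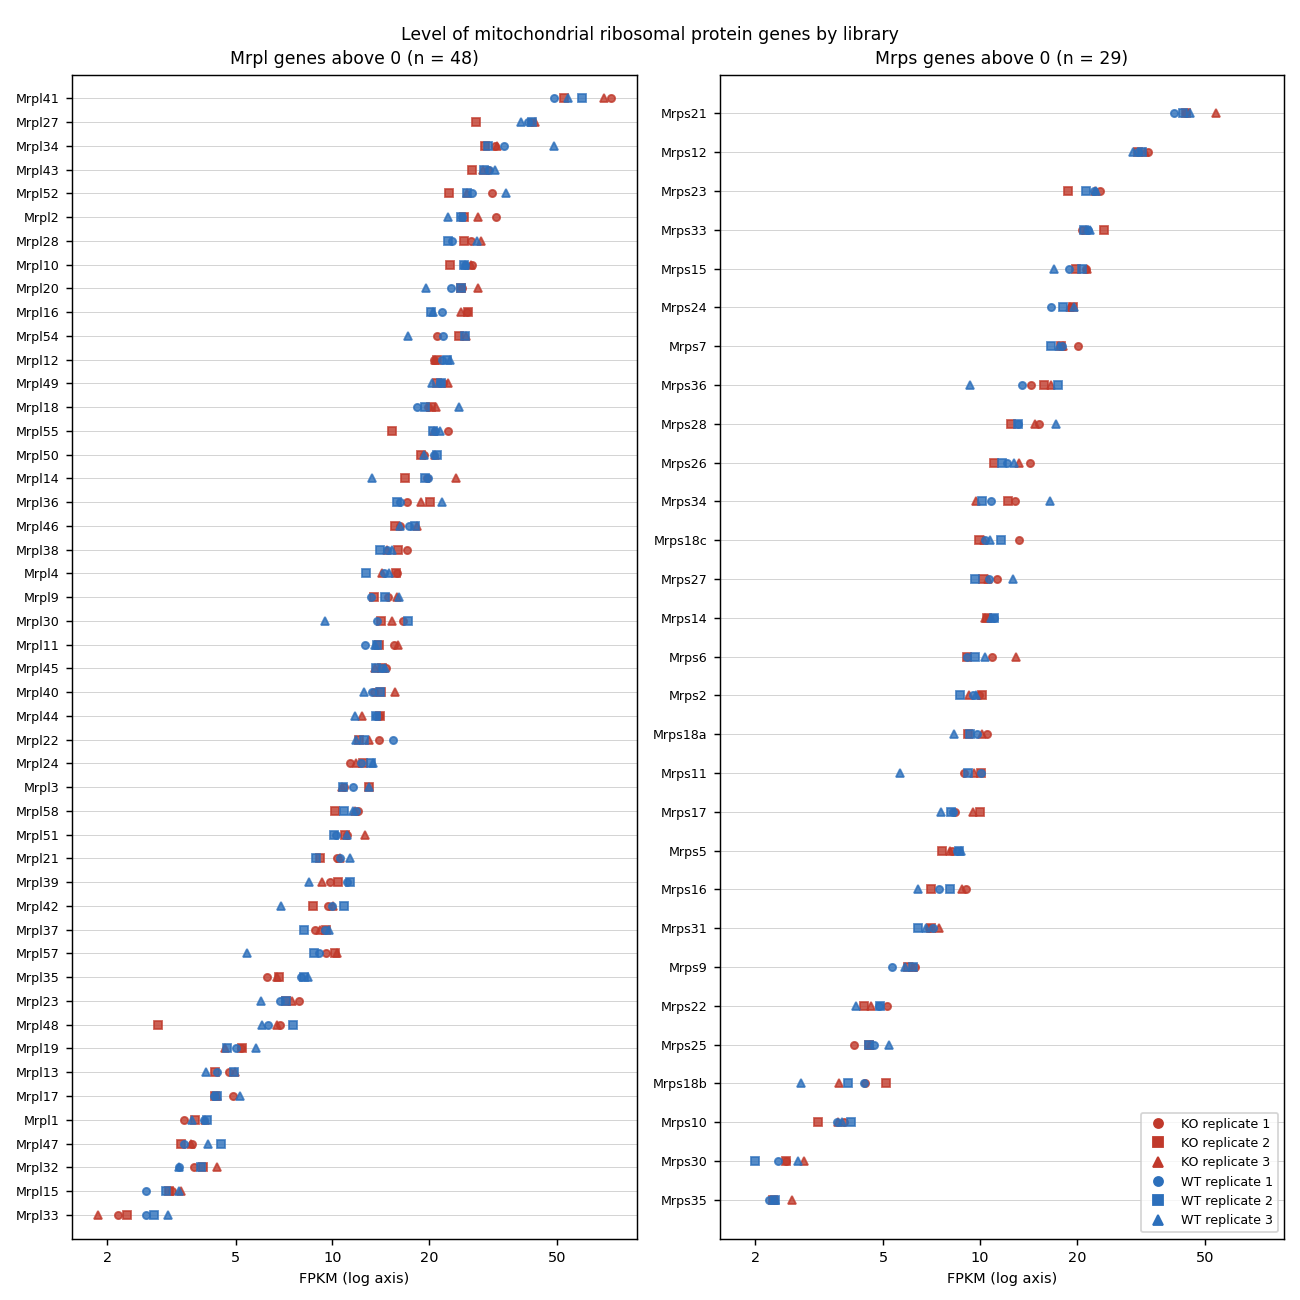
FPKM of the 77 detected mitochondrial ribosomal protein genes on a log axis, 1 point per library, Mrpl genes left and Mrps genes right, ordered by mean level. KO and WT points overlap in most rows, and single points stand apart for Mrpl48 and Mrpl27 in KO replicate 2 and for Mrpl34 and Mrps36 in WT replicate 3.

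The gene with the highest level was Mrpl41, which encodes a large-subunit protein without a bacterial counterpart. Its values were 73.4, 52.4 and 69.7 FPKM in KO replicates 1 to 3 and 48.9, 59.7 and 54.1 FPKM in WT replicates 1 to 3. The groups overlapped, since KO replicate 2 lay below WT replicates 2 and 3. Next came Mrps21, homologous to bacterial S21, at 47.2 ± 6.01 FPKM in KO and 42.5 ± 2.55 FPKM in WT. Mrpl27, homologous to bacterial L27, followed at 37.3 ± 8.16 FPKM in KO and 40.2 ± 1.60 FPKM in WT. The ranges over libraries of these neighbours in the order overlapped. Mrps12, homologous to the S12 protein of the bacterial decoding centre, varied less, at 32.3 ± 1.26 FPKM in KO and 30.9 ± 0.978 FPKM in WT. Mrpl43 measured 28.9 ± 1.66 FPKM in KO and 30.8 ± 1.22 FPKM in WT, and Mrpl52 measured 26.9 ± 4.19 FPKM in KO and 29.4 ± 4.58 FPKM in WT.

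At the low end, 5 detected genes lay between 2.33 and 3.63 FPKM on average, and all have a deposited length of at least 6666 bases. Mrps35 measured 2.39 ± 0.181 FPKM in KO and 2.27 ± 0.0558 FPKM in WT. Mrps30 measured 2.60 ± 0.201 FPKM in KO and 2.36 ± 0.366 FPKM in WT. Mrpl15 stood at 3.22 ± 0.148 FPKM in KO and 3.00 ± 0.352 FPKM in WT, and Mrps10 at 3.50 ± 0.335 FPKM in KO and 3.76 ± 0.183 FPKM in WT. In each of these 4 genes the groups overlapped, while the fifth, Mrpl33, is described with the KO and WT comparison. Genes classed as bacterial homologues (46) had a median level of 12.8 FPKM. Those classed as mitochondria-specific (31, Mrpl53 among them) had a median of 11.4 FPKM. The split is approximate, since Mrps18a and Mrps18b stand in the second class and their paralogue Mrps18c in the first.

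Summed over all 78 genes, the level was 1181, 1085 and 1189 FPKM in KO replicates 1 to 3 and 1099, 1118 and 1120 FPKM in WT replicates 1 to 3. KO replicate 2 was the lowest of all libraries, and the other KO libraries were the highest. The 49 Mrpl genes summed to 782 ± 45.7 FPKM in KO and 761 ± 7.94 FPKM in WT, and the groups overlapped. The 29 Mrps genes summed to 375, 355 and 378 FPKM in KO and 347, 352 and 354 FPKM in WT. All 3 KO sums of Mrps genes lay above the WT sums, with KO replicate 2 close to WT replicate 3. That order rests on Mrps36, classed as a dehydrogenase complex subunit, at 15.8 FPKM in KO replicate 2 and 9.32 FPKM in WT replicate 3. This gap is wider than that between the Mrps sums of these libraries, so without Mrps36 the groups would overlap. As a share of each library's FPKM sum the Mrps groups overlapped, at 0.123%, 0.121% and 0.127% in KO and 0.119%, 0.116% and 0.134% in WT. The ratio of KO to WT means was 1.03 for Mrpl and 1.05 for Mrps genes, and after rescaling every library to the same FPKM sum it was 0.985 and 1.01. The Mrpl sum over the Mrps sum was 2.15, 2.06 and 2.14 in KO replicates 1 to 3 and 2.17 in each WT library. This ratio was lower in each KO library than in any WT library, by a small margin in KO replicates 1 and 3. It goes by symbol and counts Mrps36, which was low in WT replicate 3, among the Mrps genes. Without Mrps36 the ratios of the groups would overlap.

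The comparison of KO with WT asked which of these transcripts differ in level between the genotypes. In a limma fit on log2(FPKM + 0.5) over the 16155 genes whose mean reached 0.5 FPKM, 77 of the 78 genes were tested, all but Mrpl53. None of the 77 passed an adjusted p of 0.05 (Benjamini-Hochberg over all genes tested, lowest adjusted p = 0.200), where 0.0124% of all genes did. With voom on the recovered reads no gene of the whole table passed, so that none of the 77 did tells nothing particular about them. At an unadjusted limma p under 0.05, 2 of the 77 genes were higher in KO and 2 were lower, which is 2.60% in each direction, against 8.36% of all genes tested that were higher and 6.85% that were lower. After rescaling to an equal FPKM sum the split was 1 higher and 2 lower, and that of all genes 660 higher and 1320 lower instead of 1351 and 1106. With array quality weights 9 of the 77 (11.7%) were higher, against 9.63% of all genes. Every KO value lay above every WT value for 6 genes (7.79%), against 11.8% of all genes tested, and every KO value lay below for 5 genes (6.49%), against 10.8%. With an equal FPKM sum, 5 genes (6.49%) lay above, against 6.07% of all genes, and 5 lay below, against 13.9%, so the gap to all genes on the higher side depended on the scaling. Without KO replicate 1, the library at odds with its male label, none passed the adjusted threshold in limma, where 0.0557% of all genes did. Again 2 genes (2.60%) were higher and 2 (2.60%) lower at an unadjusted limma p under 0.05, against 7.56% and 6.33% of all genes. In that setting all KO values lay above WT for 8 genes (10.4%), against 17.3% of all genes. They lay below for 8 genes (10.4%), against 15.9%.

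The differences of these genes were small. Log2 differences, KO minus WT, had a median of 0.05, with quartiles of -0.05 and 0.13, and ran from -0.36 to 0.38. Over all genes tested the median was 0.01, the quartiles were -0.13 and 0.14 and the extremes were -3.93 and 3.76. The median size of a difference, regardless of sign, was 0.10 among the 77 genes and 0.13 among all genes tested, and the median standard error was 0.10 and 0.12. Positive values made up 47 of the 77 (61.0%), against 51.5% of all genes tested. The median was 0.01 for 48 Mrpl genes and 0.07 for 29 Mrps genes. It was 0.06 for 46 genes classed as bacterial homologues and 0.04 for 30 classed as mitochondria-specific. The median over the 77 genes was -0.01 after rescaling to an equal FPKM sum, where that of all genes was -0.04.

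**Figure D2:**
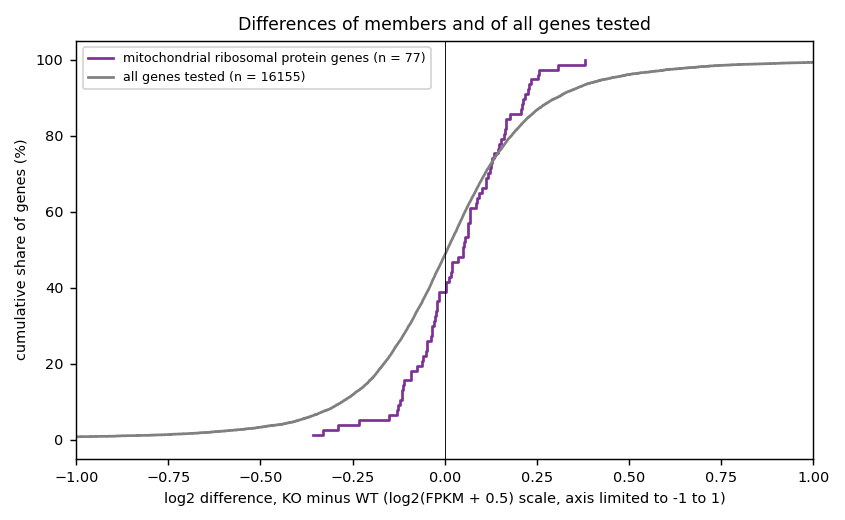
Cumulative share of genes by log2 difference (KO minus WT) for the 77 tested mitochondrial ribosomal protein genes (purple) and all 16155 genes tested (grey), with the axis limited to -1 to 1. The purple curve lies within -0.36 to 0.38 and is steeper than the grey curve, whose tails run past both ends of the axis.

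Among genes measured higher in KO, Mrpl16 had the smallest unadjusted p. It encodes the homologue of bacterial L16, a large-subunit protein near the tRNA sites (ENSMUSG00000024683, chromosome 19, 11770415 to 11774944, GRCm38). Its values were 26.1, 26.4 and 25.1 FPKM in KO replicates 1 to 3 and 21.9, 20.2 and 20.5 FPKM in WT replicates 1 to 3. All KO libraries lay above all WT libraries, and both groups were tight. The log2 difference was 0.31 ± 0.07 (SE), limma adjusted p = 0.200. With each library left out in turn it stayed between 0.29 and 0.34.

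Mrps17, the homologue of the rRNA-binding bacterial protein S17, was the other gene under an unadjusted p of 0.05 on this side. It measured 8.37, 10.02 and 9.50 FPKM in KO and 8.21, 8.11 and 7.57 FPKM in WT. The groups did not overlap, although KO replicate 1 lay next to WT replicate 1. The log2 difference was 0.21 ± 0.09, limma adjusted p = 0.324. Mrpl2, homologous to bacterial L2 of the peptidyl transferase centre, measured 32.2, 25.5 and 28.4 FPKM in KO and 25.2, 25.1 and 22.9 FPKM in WT. Its groups touched closely at KO replicate 2 and WT replicate 1, with a log2 difference of 0.23 ± 0.10 (adjusted p = 0.340) that was 0.14 without KO replicate 1. Mrpl11, at the base of the ribosomal stalk that recruits translation factors, measured 15.5, 14.0 and 16.0 FPKM in KO and 12.6, 13.8 and 13.6 FPKM in WT. Again all KO libraries were above WT, by little in KO replicate 2, and the log2 difference was 0.18 ± 0.08 (adjusted p = 0.350).

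For 2 more genes without overlap the size of the difference depended on WT replicate 3. Mrpl57, a mitochondria-specific large-subunit protein, measured 9.57, 10.2 and 10.3 FPKM in KO and 9.09, 8.78 and 5.43 FPKM in WT. Its log2 difference, 0.38 ± 0.18 (limma adjusted p = 0.375), was the most positive of the 77 genes, and it was 0.16 without WT replicate 3. Mrpl20, homologous to bacterial L20, which binds rRNA early in assembly, measured 25.2, 25.1 and 28.3 FPKM in KO and 23.4, 25.1 and 19.6 FPKM in WT. KO replicate 2 and WT replicate 2 were almost equal. Its log2 difference was 0.21 ± 0.11 (adjusted p = 0.401), and 0.11 without WT replicate 3.

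Among genes measured lower in KO, Mrpl35 had the smallest unadjusted p. It encodes the homologue of bacterial L35 (ENSMUSG00000052962, chromosome 6, 71812997 to 71826969, GRCm38). It measured 6.27, 6.82 and 6.71 FPKM in KO and 7.99, 8.16 and 8.38 FPKM in WT. The groups were clearly apart, and the mean KO level was 80.7% of WT. The log2 difference was -0.29 ± 0.07, limma adjusted p = 0.205, and it stayed between -0.31 and -0.26 with each library left out in turn. Ptcd3, which encodes a small-subunit protein whose symbol is of another kind, lies 53668 bases from Mrpl35. It measured 6.17, 5.91 and 6.25 FPKM in KO and 7.54, 7.74 and 8.28 FPKM in WT, again without overlap (log2 -0.34 ± 0.07, adjusted p = 0.200). Immt, a gene for a mitochondrial inner membrane protein, lies between them. It measured 10.72, 10.05 and 10.11 FPKM in KO and 10.98, 11.16 and 11.41 FPKM in WT, also without overlap. Its log2 difference was -0.12 ± 0.07 (limma adjusted p = 0.447). Reep1, on the other side of Mrpl35, measured 37.7, 39.9 and 38.0 FPKM in KO and 42.2, 37.6 and 42.8 FPKM in WT. Its groups overlapped (log2 -0.08 ± 0.08, limma adjusted p = 0.645).

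Mrpl33, homologous to bacterial L33, was the other gene under an unadjusted p of 0.05 on the lower side. It measured 2.16, 2.31 and 1.86 FPKM in KO and 2.64, 2.79 and 3.09 FPKM in WT. No KO value reached the WT values, and the log2 difference of -0.36 ± 0.11 (limma adjusted p = 0.242) was the most negative of the 77. The Mrpl33 model shares 39946 of its 67450 bases with Rbks on the opposite strand, and the sources used here do not say whether counting used strand. Rbks measured 3.07, 1.67 and 1.63 FPKM in KO and 2.22, 1.83 and 2.29 FPKM in WT, so its groups overlapped.

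The remaining genes without overlap on the lower side differed by little. Mrpl12, the stalk protein homologous to bacterial L7/L12, which also binds the mitochondrial RNA polymerase, measured 20.6, 21.1 and 20.9 FPKM in KO and 21.9, 22.8 and 23.2 FPKM in WT. Its log2 difference was -0.12 ± 0.06 (limma adjusted p = 0.428), and both groups were narrow. Polrmt, the gene of that polymerase, measured 5.83, 6.03 and 5.34 FPKM in KO and 5.52, 6.05 and 7.05 FPKM in WT, with overlap. Mrps5, homologous to the bacterial fidelity protein S5, measured 8.17, 7.60 and 8.04 FPKM in KO and 8.48, 8.61 and 8.71 FPKM in WT (log2 -0.11 ± 0.07, adjusted p = 0.474). Mrps14, homologous to bacterial S14, had the smallest difference of the 5, at 10.5 ± 0.134 FPKM in KO and 10.97 ± 0.119 FPKM in WT. Mrpl24, at the exit of the peptide tunnel, overlapped between groups at 11.9 ± 0.553 FPKM in KO and 12.9 ± 0.573 FPKM in WT. Mrpl34, one of the smallest ribosomal proteins, measured 32.1, 29.8 and 32.5 FPKM in KO and 34.2, 30.4 and 48.8 FPKM in WT. Its log2 difference of -0.23 ± 0.17 (adjusted p = 0.538) was -0.04 without WT replicate 3.

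**Figure D3:**
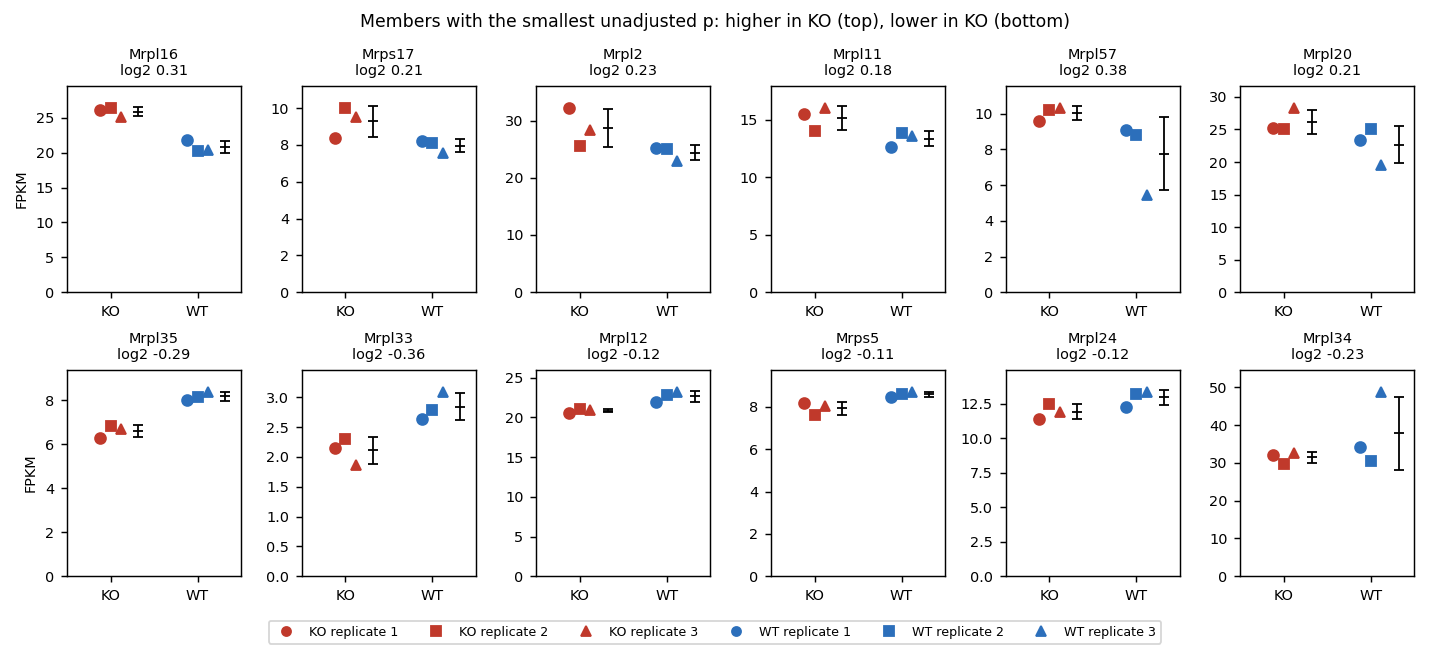
FPKM per library, with the mean and SD in black, of the 6 genes with the smallest unadjusted p on each side (KO left and WT right in each panel, axes from 0). Mrpl16 and Mrpl35 show narrow groups apart from each other, whereas in Mrpl57 and Mrpl34 the WT spread comes from replicate 3.

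Other large-subunit genes, picked after their values were seen, had overlapping groups. The stalk that recruits translation factors rests on Mrpl10, homologous to bacterial L10, which measured 27.2, 23.3 and 26.9 FPKM in KO and 25.7, 25.6 and 25.7 FPKM in WT. Its WT values were almost identical, and the KO values lay on both sides of them (log2 difference 0.00). Mrpl58, a peptidyl-tRNA hydrolase that is also built into the large subunit, averaged 11.3 ± 0.979 FPKM in KO and 11.4 ± 0.469 FPKM in WT. Around the exit of the peptide tunnel, Mrpl45, which anchors the ribosome to the inner membrane, averaged 14.2 ± 0.535 FPKM in KO and 14.1 ± 0.419 FPKM in WT. Mrpl22, homologous to bacterial L22 of the tunnel wall, averaged 13.0 ± 0.940 FPKM in KO and 13.3 ± 1.92 FPKM in WT. Mrpl3, homologous to the early assembly protein L3, averaged 11.5 ± 1.26 FPKM in KO and 11.8 ± 1.11 FPKM in WT.

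In the small subunit, Mrps7, homologous to bacterial S7 at the mRNA exit, averaged 18.7 ± 1.25 FPKM in KO and 17.4 ± 0.709 FPKM in WT. Mrps2, homologous to bacterial S2, averaged 9.77 ± 0.504 FPKM in KO and 9.30 ± 0.575 FPKM in WT. Mrps16, homologous to bacterial S16, measured 9.01, 7.03 and 8.77 FPKM in KO and 7.43, 8.07 and 6.43 FPKM in WT, with KO replicate 2 among the WT values (log2 0.17). Of the mitochondria-specific members, Mrps22 averaged 4.69 ± 0.411 FPKM in KO and 4.61 ± 0.421 FPKM in WT, and Mrps27, a pentatricopeptide repeat protein, averaged 10.7 ± 0.568 FPKM in KO and 10.98 ± 1.53 FPKM in WT. Mrps25 averaged 4.37 ± 0.279 FPKM in KO and 4.80 ± 0.376 FPKM in WT, the most negative log2 difference of the Mrps genes at -0.12. The groups of these 6 genes overlapped too.

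Some symbols do not name the subunit in which the protein sits. Mrps30 and Mrps18a are large-subunit proteins by structure, and Mrps36 is now known as a subunit of the oxoglutarate dehydrogenase complex. Mrps18a measured 9.94 ± 0.669 FPKM in KO and 9.12 ± 0.760 FPKM in WT. Its paralogues, both in the small subunit, were Mrps18b at 4.38 ± 0.728 FPKM in KO and 3.67 ± 0.813 FPKM in WT and Mrps18c at 11.1 ± 1.83 FPKM in KO and 10.9 ± 0.644 FPKM in WT. All 3 paralogues had overlapping groups, with log2 differences of 0.12, 0.23 and 0.02. Mrps36 measured 14.4, 15.8 and 16.7 FPKM in KO and 13.4, 17.5 and 9.32 FPKM in WT, the widest relative spread within WT of all 77 genes, and its log2 difference was 0.25 ± 0.21 (limma adjusted p = 0.589).

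The range of these genes over the 6 libraries had a median of 0.33 on the log2(FPKM + 0.5) scale, against 0.43 for all genes tested, which are not matched to them in level, and only Mrpl48 had a range above 1, which is 1.30% of the 77 against 12.05% of all genes. WT replicate 3 stood apart from the other libraries. It held the highest or the lowest value of 44 of the 77 genes (57.1%), against 35.4% of all genes tested. Each of the other 5 libraries did so for 14 to 26 genes (18.2% to 33.8%), against 24.0% to 46.2% of all genes. Over all genes the largest share, 46.2%, was that of KO replicate 2. The SD of the deviations from each gene's mean was 0.23 in WT replicate 3 and 0.09 to 0.16 in the other 5, while over all genes tested it was 0.27 in WT replicate 3 and 0.25 to 0.32 in the others.

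The deviations of WT replicate 3 went both ways. By more than 0.3 on the log2 scale, 9 genes lay below their mean in that library and 3 lay above it, and no gene passed that limit in WT replicate 1. The 9 were Mrpl57, Mrps11, Mrps36, Mrpl30, Mrpl14, Mrps18b, Mrpl42, Mrpl54 and Mrpl20, at 56.6% to 77.1% of the mean of the other 5 libraries. The 3 were Mrpl34, Mrps34 and Mrpl52, at 129% to 154% of that mean. Mrpl30, for example, measured 16.6, 14.1 and 15.4 FPKM in KO and 13.8, 17.2 and 9.48 FPKM in WT. Mrps34 measured 12.8, 12.2 and 9.73 FPKM in KO and 10.8, 10.1 and 16.4 FPKM in WT. The median deviation of the 77 genes in WT replicate 3 was 0.01, and the summed level there was 1120 FPKM. These values depend on the deposited scale, since WT replicate 3 has the lowest FPKM total, 264447. With an equal FPKM sum, an alternative chosen after seeing the data, 6 genes lay below and 11 above by more than 0.3, the median deviation was 0.15, and the library held the highest or lowest value of 56 genes, against 48.8% of all genes. As a share of the FPKM total the 78 genes held 0.424% in WT replicate 3, against 0.377% and 0.368% in WT replicates 1 and 2. In the same library 12 of 13 messenger RNAs of the mitochondrial genome had their lowest value, with a median deviation of -1.16, and the part of this in the nuclear genes was not tested.

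**Figure D4:**
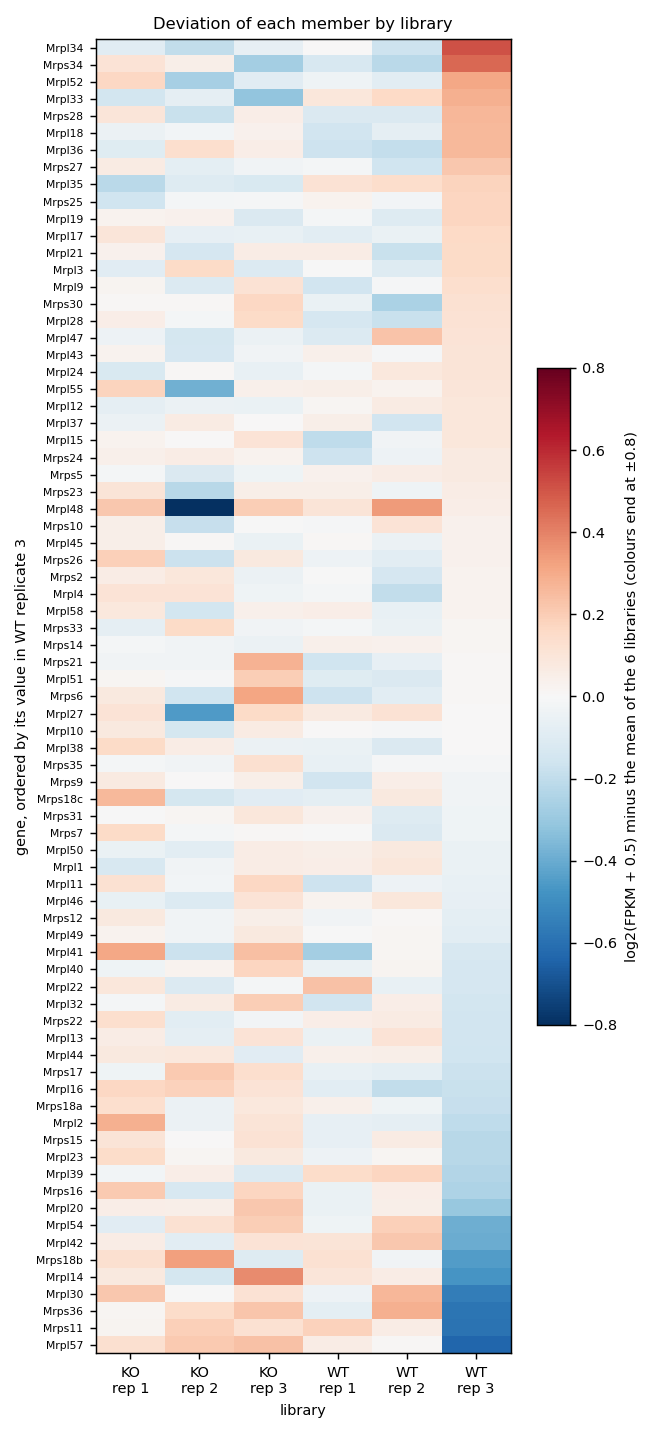
Deviation of each of the 77 genes from its mean over the 6 libraries on the log2(FPKM + 0.5) scale, with KO libraries left, WT libraries right and genes ordered by their value in WT replicate 3. That column spans the widest colours at both ends, and Mrpl48, Mrpl27 and Mrpl55 are dark in KO replicate 2.

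Mrpl48, which encodes a mitochondria-specific large-subunit protein, had the widest spread of all. Its values were 6.87, 2.88 and 6.75 FPKM in KO replicates 1 to 3 and 6.30, 7.54 and 6.06 FPKM in WT replicates 1 to 3. KO replicate 2 stood alone at 43.0% of the mean of the other 5 libraries, and its 95% Poisson interval, which holds counting error and no spread between mice, was 2.61 to 3.17 FPKM. The log2 difference was -0.33 ± 0.30 (limma adjusted p = 0.630) and was 0.04 without KO replicate 2. With KO replicate 1 left out instead it was -0.52. Rab6a, whose model overlaps the Mrpl48 start on the opposite strand by 892 bases, measured 102 FPKM in KO replicate 2 and 90.1 to 109 FPKM in the other libraries.

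The processed pseudogene of Mrpl48 moved the other way in the same library. Mrpl48-ps (chromosome 4, 88599175 to 88599810, GRCm38), a reverse-transcribed copy and no member of the 78, measured 0.920, 15.7 and 2.84 FPKM in KO and 0.597, 0.962 and 0.723 FPKM in WT. KO replicate 2 was far above all others, and KO replicate 3 was above the remaining 4. In reads, Mrpl48 had 1053, 425 and 975 in KO and 948, 1105 and 1074 in WT, and Mrpl48-ps had 11, 181 and 32 in KO and 7, 11 and 10 in WT. Together they made 606 reads in KO replicate 2 and 955 to 1116 in the other libraries, so the pseudogene row held fewer reads than the gene lacked. How reads that fit both rows were treated is not stated in those sources, and values of both are uncertain for that reason. Mrpl23-ps1 was also highest in KO replicate 2, with 31 reads against 5 to 14 in the other libraries, while Mrpl23 measured 7.15 FPKM there and 5.98 to 7.89 FPKM elsewhere.

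**Figure D5:**
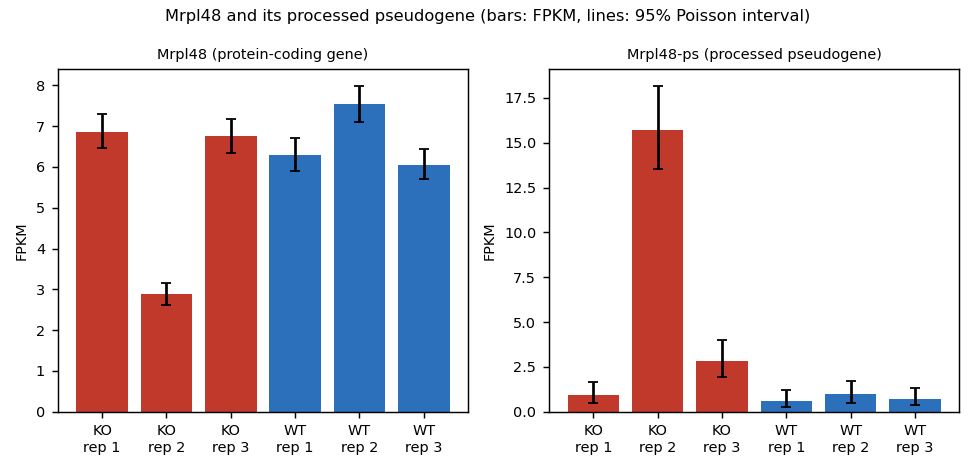
FPKM of Mrpl48 (left) and Mrpl48-ps (right) in each library, KO in red and WT in blue, with 95% Poisson intervals that cover counting error only. KO replicate 2 is the lowest library for the gene at 2.88 FPKM and the highest for the pseudogene at 15.7 FPKM.

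In KO replicate 2 Mrpl27 and Mrpl55 also lay apart. Mrpl27 measured 41.4, 27.9 and 42.7 FPKM in KO and 40.4, 41.7 and 38.5 FPKM in WT. Mrpl55, the homologue of bacterial L31, measured 22.8, 15.3 and 20.7 FPKM in KO and 20.8, 20.5 and 21.6 FPKM in WT. In both genes the other 5 libraries were close to each other and KO replicate 2 was at 68.3% and 71.8% of their mean. Leaving out KO replicate 2 left 6 genes higher (7.79%, against 7.28% of all genes) and 2 lower (2.60%, against 5.98%) at an unadjusted limma p under 0.05. It left 18 genes (23.4%) with every KO value above every WT value, against 17.2% of all genes in that smaller comparison. KO replicate 2 was also the KO library with the highest excitatory and the lowest oligodendrocyte marker sum, and the part of this was not tested.

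The factors that build and serve this ribosome were counted in the same way. Of 27 tested genes for ribosome assembly and rRNA modification, none passed the adjusted threshold in limma, and the median log2 difference was -0.03. At an unadjusted limma p under 0.05, 1 (3.70%) was higher and 2 (7.41%) were lower, against 8.36% and 6.85% of all genes tested. Trmt2b, a methyltransferase of mitochondrial RNA, averaged 4.44 ± 0.290 FPKM in KO and 5.77 ± 0.315 FPKM in WT. Its log2 difference was -0.35 ± 0.08 (adjusted p = 0.205). The helicase gene Ddx28 averaged 6.82 ± 0.557 FPKM in KO and 5.77 ± 0.179 FPKM in WT (log2 0.22), and the rRNA methyltransferase gene Mrm1 averaged 4.05 ± 0.0132 FPKM in KO and 4.70 ± 0.298 FPKM in WT (log2 -0.19). The 5 ribosomal proteins with other names, Dap3, Ptcd3, Chchd1, Aurkaip1 and Gadd45gip1, had a median of -0.04, and 1 of them, Ptcd3, was under an unadjusted p of 0.05.

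Among 21 genes for mitochondrial translation factors and tRNA modification, 0 were higher and 1 (4.76%) was lower at an unadjusted limma p under 0.05. Their median log2 difference was -0.01. For this and the next lists, the shares of all genes tested were 8.36% higher and 6.85% lower. The lower gene was Guf1, a ribosome-binding GTPase, at 3.93 ± 0.153 FPKM in KO and 4.62 ± 0.136 FPKM in WT. Of 20 genes that charge mitochondrial tRNAs, 1 (5%) was higher and 0 lower, with a median of -0.03. The 1 was Pars2, the prolyl-tRNA synthetase, at 3.28 ± 0.297 FPKM in KO and 2.53 ± 0.202 FPKM in WT. Of 26 genes for mitochondrial DNA maintenance, transcription and RNA processing, 1 (3.85%) was higher and 0 lower, with a median of 0.01. That gene was the oligoribonuclease gene Rexo2, at 15.3 ± 1.40 FPKM in KO and 13.3 ± 0.254 FPKM in WT. Of 10 regulators of nuclear mitochondrial genes, Nrf1, Gabpa and Ppargc1a among them, 0 were under an unadjusted p of 0.05, and the median was -0.0015. No gene of these lists passed the adjusted threshold in limma.

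Other ribosomal and mitochondrial genes were set beside these lists, and a difference from the mitochondrial ribosomal proteins was not tested. Cytosolic ribosomal protein genes (87 tested) had a median of 0.10 on the log2 scale. At an unadjusted limma p under 0.05, 10 of them (11.5%) were higher but 3 (3.45%) lower. Nuclear subunits of the respiratory chain and ATP synthase (82 tested) had 0.11 as their median, and 15 (18.3%) were higher but 3 (3.66%) lower. The shares of all genes tested were 8.36% higher and 6.85% lower. Atp5k, an ATP synthase subunit gene, averaged 93.4 ± 17.1 FPKM in KO and 47.8 ± 10.3 FPKM in WT, and Ndufa1, of complex I, averaged 138 ± 9.53 FPKM in KO and 83.6 ± 19.3 FPKM in WT. None of these genes passed the adjusted threshold. Without KO replicate 1 the median was 0.04 for the cytosolic and 0.08 for the respiratory chain genes. The 13 messenger RNAs of the mitochondrial genome had a median of 0.11 with none under an unadjusted p of 0.05. Their direction rested on WT replicate 3, since without it the median was -0.36. The ribosomal RNAs mt-Rnr1 and mt-Rnr2, partners of the proteins described here, had log2 differences of -0.03 and -0.06.

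The 78 genes are spread over 17 chromosomes, with 11 on chromosome 11 and 8 on chromosome 17. The 2 on chromosome 8, which carries Cntnap4, are Mrpl34 and Mrps31, at 41.1 and 90.2 Mb from it. Of the 77 tested genes, 33 (42.9%) had the start of another protein-coding gene on the opposite strand within 1000 bases of their own, against 14.8% of 13376 protein-coding genes tested. Some of these partners also serve mitochondria. Mrps12 starts 172 bases from Sars2, the mitochondrial seryl-tRNA synthetase gene, and their log2 differences were 0.06 and -0.04. Mrpl43 starts 116 bases from Twnk, the mitochondrial DNA helicase gene, with log2 differences of -0.09 and 0.22. Mrpl36 starts 29 bases from the complex I gene Ndufs6, with 0.06 and 0.43, and Mrpl47 starts 615 bases from the complex I gene Ndufb5, with -0.15 and -0.28.

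A single pair of members shares such a start, Mrpl46 and Mrps11 on chromosome 7, whose models overlap by 413 bases. Mrpl46 measured 16.2, 15.6 and 18.3 FPKM in KO and 17.3, 18.0 and 16.2 FPKM in WT. Mrps11 measured 8.91, 10.1 and 9.59 FPKM in KO and 10.03, 9.14 and 5.66 FPKM in WT. The low value of Mrps11 in WT replicate 3 was thus not shared by its neighbour to the same extent. Overlap with other genes limits some values, as 41 of the 78 models overlap another gene of the table and 25 overlap a protein-coding one. All 900 bases of Mrpl53 lie within Gm42688 on the same strand, which had 16 to 34 reads per library. All 2387 bases of Mrps34 lie within Mapk8ip3 on the opposite strand, which measured 30.2 to 33.2 FPKM in KO and 30.8 to 33.4 FPKM in WT. Mrps34 also shares 1003 bases with the protein-coding Nme3 on the same strand, which was listed at 0 in each library.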

How the data were processed

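The authors deposited 1 table of FPKM values for 6 libraries. Per the labels' protocols, RNA was column-purified and sequenced after SMARTer mRNA library preparation. The build was GRCm38 (mm10), per the submitters' processing notes. Aligner, counter, strand setting and annotation: not given in the sources used here. Columns were matched by name, and 0 stayed unmatched. FPKM times length was a whole multiple (within 0.01) of 1 step per library for 100% of nonzero values, which gave the reads. The step per kilobase was 0.0552 FPKM in KO replicate 2, with 18684512 reads in genes. It was 0.0542 FPKM in WT replicate 1, with 18375949, so the step did not follow these reads alone. Poisson intervals cover counting error only, since reads carry no molecular identifiers.

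The KO and WT comparison used limma-trend with robust moderation (limma 3.58.1, R 4.3.3) on log2(FPKM + 0.5), which understates changes of low genes, for the 16155 genes whose mean reached 0.5 FPKM, with Benjamini-Hochberg adjustment. It was tested on simulated data. The labels number the mice only, so the p-values reflect only how these samples vary, which may be technical.

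Members and lists were chosen with earlier results of these data known. Named genes are the 8 highest, the 6 lowest, the 6 with the smallest p per direction, those with the largest relative spread per group and those outside their symbol's subunit, plus up to 3 per list. Genes beyond that, such as those given by functional site, Mrpl27 in KO replicate 2, Mrpl55, Mrps11, Mrpl46, Mrps34, Mrpl30, Mrps14, Immt, overlapping genes, divergent partners and pseudogenes, were chosen after their values were seen, and the bacterial homologue classes were written then.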

Additional observations from a re-analysis of the deposited data

Results flagged for a closer look

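Mrpl48-ps, a pseudogene row outside the 78 genes and outside the comparison, was higher in 2 KO libraries than in any WT library. Its values were 0.920, 15.7 and 2.84 FPKM in KO replicates 1 to 3, against 0.597 to 0.962 FPKM in WT. The row was noticed after its values were seen, and the difference between single mice was not tested. Groups of 3 libraries are too small for a search for single outlying samples.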

How the results depend on the processing

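No mitochondrial ribosomal protein gene passed an adjusted p of 0.05 in any alternative, or 0.1 with the settings of the report. In several alternatives, such as voom, no filter and the replicate block, no gene at all passed 0.05. Of the 2 genes higher at an unadjusted limma p under 0.05, 1 (1.30%) was left with no filter, an equal FPKM sum or median-ratio size factors. The same held with quantile normalization, plain moderation or the replicate block. The share of all genes in these settings was 4.09% to 7.92%. Array quality weights gave 9 (11.7%, against 9.63% of all genes). Among genes of at least 5 FPKM, 1 of 64 (1.56%) was lower, against 7.04% of all genes. That filter removed Mrpl33, at 2.48 FPKM on average. Genes with all KO values above WT numbered 3 with quantile normalization and 3 with voom (3.90% each, against 9.92% and 8.46% of all genes). The median log2 difference was -0.0071 with an equal FPKM sum, 0.015 with quantile normalization, 0.0096 with voom and 0.026 with the trend on gene length removed, and the Mrpl and Mrps ratios were 0.985 and 1.01 with an equal sum. The cause of these shifts was not tested.

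Leaving out each library gave 1 to 6 genes higher and 1 to 2 lower at an unadjusted limma p under 0.05. The higher genes numbered 6 without KO replicate 2, 4 without WT replicate 2 and 1 without KO replicate 3. Those were 7.79%, 5.19% and 1.30%, against 7.28%, 5.34% and 7.74% of all genes. The lower genes numbered 1 without KO replicate 3, or 1.30% against 6.20% of all genes. All KO values lay above WT for 8 to 18 genes (18, 15, 13 and 11 without KO replicate 2, WT replicate 3, WT replicate 2 and KO replicate 3) and below for 5 to 9 (9 without WT replicate 2, 8 without KO replicate 1), where fewer libraries make non-overlap easier. All genes then lay above in 15.1% to 18.8% and below in 13.9% to 17.5%. The median was 0.03 to 0.08, the Mrpl ratio 1.01 to 1.06, the Mrps ratio 1.04 to 1.07 and the Cntnap4 log2 difference -1.35 to -0.80. Of the genes recomputed one by one, only Mrpl48 changed sign, at 0.041 without KO replicate 2 in a range of -0.521 to 0.041. No pairing by replicate number was seen (correlations of -0.09, -0.14 and -0.07 between same-numbered libraries), which 3 libraries per group cannot exclude. The replicate block gave 1 gene higher (1.30%) and 2 lower (2.60%), against 5.66% and 4.64% of all genes.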
